A study of Arabidopsis thaliana and Arabidopsis thaliana x Arabidopsis arenosa and Arabidopsis arenosa with 18 samples.

Results

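The EC1 genes (EGG CELL 1) of Arabidopsis thaliana and MYB98, a gene of the synergid cells, were followed across 14 libraries of messenger RNA from seeds and fruits collected 3 days after pollination. The 6 genes were chosen by locus: EC1.1 (AT1G76750, chromosome 1), EC1.2 (AT2G21740, chromosome 2), EC1.3 (AT2G21750, chromosome 2), EC1.4 (AT4G39340, chromosome 4), EC1.5 (AT5G64720, chromosome 5) and MYB98 (AT4G18770, chromosome 4). All 6 were rows of a table of 33602 loci.

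The study asked how gene expression differs between an incompatible and a compatible cross of A. thaliana with A. arenosa, a related species. Hybrid seeds came from mothers of the accession Col-0 (Col), the incompatible cross, or C24, the compatible cross, fertilised by diploid A. arenosa var. Strecno. Whole siliques, the fruits with everything inside them, were taken from the same kinds of cross. Control seeds came from Col mothers with Col-0 pollen, from C24 mothers with C24 pollen, and from A. arenosa crossed with A. arenosa. Each of these 7 groups held 2 libraries, called replicates 1 and 2 below; the labels do not say that these came from separate plants, so p-values measure the spread between libraries, which may be technical. Each library of the A. thaliana controls is the sum of 2 sequenced records. All A. thaliana mothers, in hybrids and controls alike, carried 1 copy of the A9 construct, which makes them male sterile; stigmas were hand-pollinated. The label texts name 1 A. arenosa plant as the pollen donor for the seed crosses and a single pair of plants for the silique crosses, so the donor and the set of libraries cannot be told apart from the tissue when seeds are set against siliques.

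The egg cell and the synergids lie side by side in the unfertilised ovule. Synergids secrete small attractant peptides that guide the pollen tube, and MYB98 is the transcription factor known to drive many synergid genes, the LURE1 attractants among them. The egg cell stores EC1 proteins, small cysteine-rich proteins that are released when sperm arrive and that prepare the sperm for fusion. After fertilisation the egg cell becomes the zygote and the synergids break down, so the genes of both cell types are known mainly from ovules before fertilisation.

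The 5 EC1 genes are diverged copies. Their coding sequences were 82.8% identical between EC1.2 and EC1.3, 77.3% between EC1.2 and EC1.4 and 76% between EC1.3 and EC1.4. The other pairs were between 45% and 58.2% identical, and no pair shared a word of 31 bases. The stretch of 90 coding bases with the most positions in common is shown to let the copies be compared, with the 31 bases identical in all 5 genes in capitals (RefSeq, TAIR10.1, coding strand, 5′ to 3′).
EC1.1: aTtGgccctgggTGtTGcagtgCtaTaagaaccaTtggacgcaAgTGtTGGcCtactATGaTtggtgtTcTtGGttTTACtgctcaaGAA
EC1.2: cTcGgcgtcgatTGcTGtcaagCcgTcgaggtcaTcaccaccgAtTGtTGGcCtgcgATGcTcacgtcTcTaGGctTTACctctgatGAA
EC1.3: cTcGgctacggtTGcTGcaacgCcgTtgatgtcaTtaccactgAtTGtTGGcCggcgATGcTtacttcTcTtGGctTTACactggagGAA
EC1.4: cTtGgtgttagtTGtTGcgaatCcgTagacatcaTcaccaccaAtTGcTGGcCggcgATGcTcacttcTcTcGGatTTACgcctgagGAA
EC1.5: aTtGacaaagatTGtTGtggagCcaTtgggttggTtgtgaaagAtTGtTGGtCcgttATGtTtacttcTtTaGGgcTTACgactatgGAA

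Counting limits differed between the copies. Of the 372 words of 31 bases in EC1.2, 105 (28.2%) also occur in AT2G21895, an annotated transcribed pseudogene of the family on chromosome 2, so EC1.2 values are uncertain. That pseudogene had 1 read in replicate 2 of the Col hybrid seeds and 0 in the other libraries. EC1.1, EC1.3, EC1.5 and MYB98 had no such shared word, and EC1.4 shared 0.282% of its words. No strand marking was stated, so reads of genes that overlap on opposite strands cannot be told apart. EC1.2 overlaps the end of CAD2 by 193 bases, and EC1.1 overlaps the antisense locus AT1G09657 by 320 bases and the end of TY1 by 37 bases. MYB98 overlaps IRX1, a cellulose synthase gene, by 481 bases.

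Depth was 8931520 to 16149496 gene reads in the libraries with an A. thaliana mother, and 1777781 and 2089616 in the A. arenosa controls. Levels are given as reads and as CPM, reads per 1000000 gene reads scaled with TMM factors over all 14 libraries. A count of 3 reads corresponded to 0.182 to 0.375 CPM in the A. thaliana mothers' libraries and to 1.41 and 1.39 CPM in A. arenosa. Replicate 1 of the Col control seeds stood apart: it had reads in 31430 genes, against 22555 to 28243 in the other libraries with an A. thaliana mother, and 1.22% of its gene and transposable element reads fell on transposable elements, against 0.0440% to 0.258% in the other seed libraries of those mothers. Results that rest on it are given with and without it.

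The tissue labels of the hybrid seeds and siliques were checked with other genes. Endosperm genes (PHE1, AGL62, MINI3 and ZOU) summed to 115 to 284 CPM in the 4 hybrid seed libraries, against 4.58 to 14.2 CPM in the 4 silique libraries. FUL, which patterns the fruit valves, was lower in seeds than in siliques by a log2 difference of -6.40 ± 0.35 (SE) in the Col cross and -6.74 ± 0.36 in the C24 cross (edgeR's quasi-likelihood test, adjusted p = 4.75e-06 and 3.3e-06). Of the 5 fruit genes listed, 3 were lower, IND among them (-4.98 and -4.55), and 2, SHP1 and SHP2, were higher in seeds in both crosses (SHP2 1.02 and 1.28). IND had 15 and 17 summed reads in Col and C24 hybrid seeds and passed the filter on low counts only through the siliques. In A. arenosa control seeds, counted on the A. thaliana genome, the endosperm genes summed to 0 and 0.462 CPM. FUL averaged 121 ± 85.5 CPM there (SD, n = 2), against 70.2 and 77.4 CPM in Col and C24 hybrid siliques. These genes thus did not bear out the seed label of those libraries, and the cause was not tested.

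EC1.1, EC1.2, EC1.3 and EC1.5 were nearly missing from hybrid seeds and were found in every silique library, while EC1.4 was found in both tissues. EC1.1 had 2 and 4 reads in Col hybrid seeds, against 235 and 76 in Col hybrid siliques. In the C24 cross it had 4 and 3 reads in seeds, against 160 and 198 in siliques. The seed and silique libraries did not overlap in either cross.

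Scaled to depth, EC1.1 averaged 0.315 ± 0.262 CPM in Col hybrid seeds and 10.4 ± 8.14 CPM in Col hybrid siliques (SD, n = 2 each). It averaged 0.311 ± 0.0313 CPM in C24 hybrid seeds and 12.9 ± 2.70 CPM in C24 hybrid siliques. The log2 difference, seeds minus siliques, was -5.27 ± 0.78 (SE) in the Col cross and -5.33 ± 0.75 in the C24 cross (edgeR's quasi-likelihood test, adjusted p = 0.000532 and 0.000343). Without replicate 1 of the Col hybrid siliques the Col value was -4.08, without replicate 1 of the Col hybrid seeds -4.41, without replicate 2 of those seeds -6.22 and without replicate 2 of those siliques -5.87, each still past the threshold.

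EC1.2 and EC1.3 are neighbours on chromosome 2 and the closest pair of the family. EC1.2 had 0 and 4 reads in Col hybrid seeds, against 72 and 24 in Col hybrid siliques. The C24 cross gave 0 and 0 reads in seeds, against 32 and 31 in siliques. The tissues were thus separate in both crosses, with a single seed library holding any read of EC1.2.

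The log2 difference of EC1.2 in the Col cross was -4.06 ± 1.09 (SE, adjusted p = 0.0137). That call was lost without replicate 1 of the Col hybrid seeds (-2.72, adjusted p = 0.0841), without replicate 1 of the Col hybrid siliques (-2.91, adjusted p = 0.0805) and in a fit of all 7 groups (-3.86, adjusted p = 0.0968). Without replicate 2 of those seeds, which held the 4 reads, or of those siliques, the call held and the fitted differences were -8.47 and -4.66, of which the first, against 0 reads, is no bound. In the C24 cross EC1.2 was at least 8.42-fold lower in seeds, taking 3 reads per library as the floor (adjusted p = 0.00588). CAD2, which overlaps EC1.2, had 10 to 38 reads in hybrid seeds and 3 to 15 in siliques, higher in seeds without overlap in the Col cross and with overlapping counts in the C24 cross.

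EC1.3 had no read in any of the 4 hybrid seed libraries. It had 124 and 38 reads in Col hybrid siliques and 43 and 81 in C24 hybrid siliques. With the same floor it was at least 18.9-fold lower in Col hybrid seeds and at least 16.8-fold lower in C24 hybrid seeds than in the siliques of the same cross (adjusted p = 0.00197 and 0.00209). The calls held without any single library of the cross.

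EC1.5, the copy on chromosome 5, had 4 and 1 reads in Col hybrid seeds, against 73 and 29 in Col hybrid siliques. The C24 libraries gave 1 and 2 reads in seeds, against 94 and 90 in siliques. In the Col cross the log2 difference was -3.98 ± 0.71 (SE, adjusted p = 0.00148). In the C24 cross the silique to seed ratio of scaled reads was 49.4, with an exact 95% interval of 16.6 to 242 that covers counting error only (adjusted p = 0.000266). Without replicate 1 of the Col hybrid siliques the Col difference was -3.02, and without replicate 1 of the Col hybrid seeds it was -4.71, both called. Without replicate 2 of the C24 hybrid seeds the fitted C24 difference was -6.12, and it was called as well.

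EC1.4 was the exception within the family. It had 19 and 15 reads in Col hybrid seeds, against 93 and 51 in Col hybrid siliques. The C24 cross gave 20 and 23 reads in seeds, against 102 and 78 in siliques. Seeds were lower in both crosses without overlap, but every seed library held EC1.4 reads. The neighbouring locus CAD9 had 7749 to 13106 reads in hybrid seeds and 8745 to 10894 in hybrid siliques. CAD9 does not overlap EC1.4 as annotated, and whether any of its reads were counted for EC1.4 was not tested.

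Its mean level was 1.56 ± 0.452 CPM in Col hybrid seeds and 4.73 ± 2.33 CPM in Col hybrid siliques, and 1.94 ± 0.388 CPM in C24 hybrid seeds and 6.44 ± 0.835 CPM in C24 hybrid siliques (SD, n = 2 each). The log2 differences were -1.67 ± 0.45 and -1.73 ± 0.44 (SE, adjusted p = 0.0123 and 0.0079). Leaving out replicate 1 of the Col hybrid seeds (-1.4, adjusted p = 0.0984), of the Col hybrid siliques (-1.05, adjusted p = 0.0944) or of the C24 hybrid seeds (-1.58, adjusted p = 0.0604) ended the call in that cross.

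In all, 5 of the 6 genes were called lower in seeds in each cross. Among the 20700 genes tested, 53.2% were called in either direction in the Col cross and 58.8% in the C24 cross, and 29.8% and 31.9% were called lower in seeds, so such a call was common. EC1.1, EC1.2, EC1.3 and EC1.5 had at most 4 reads in any hybrid seed library and passed the filter on low counts through the siliques, so a difference was a condition of being tested. The count dropped to 3 without replicate 1 of the Col hybrid seeds or siliques. In whole tissues, fewer cells of a type and less RNA per cell cannot be told apart.

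**Figure D1:**
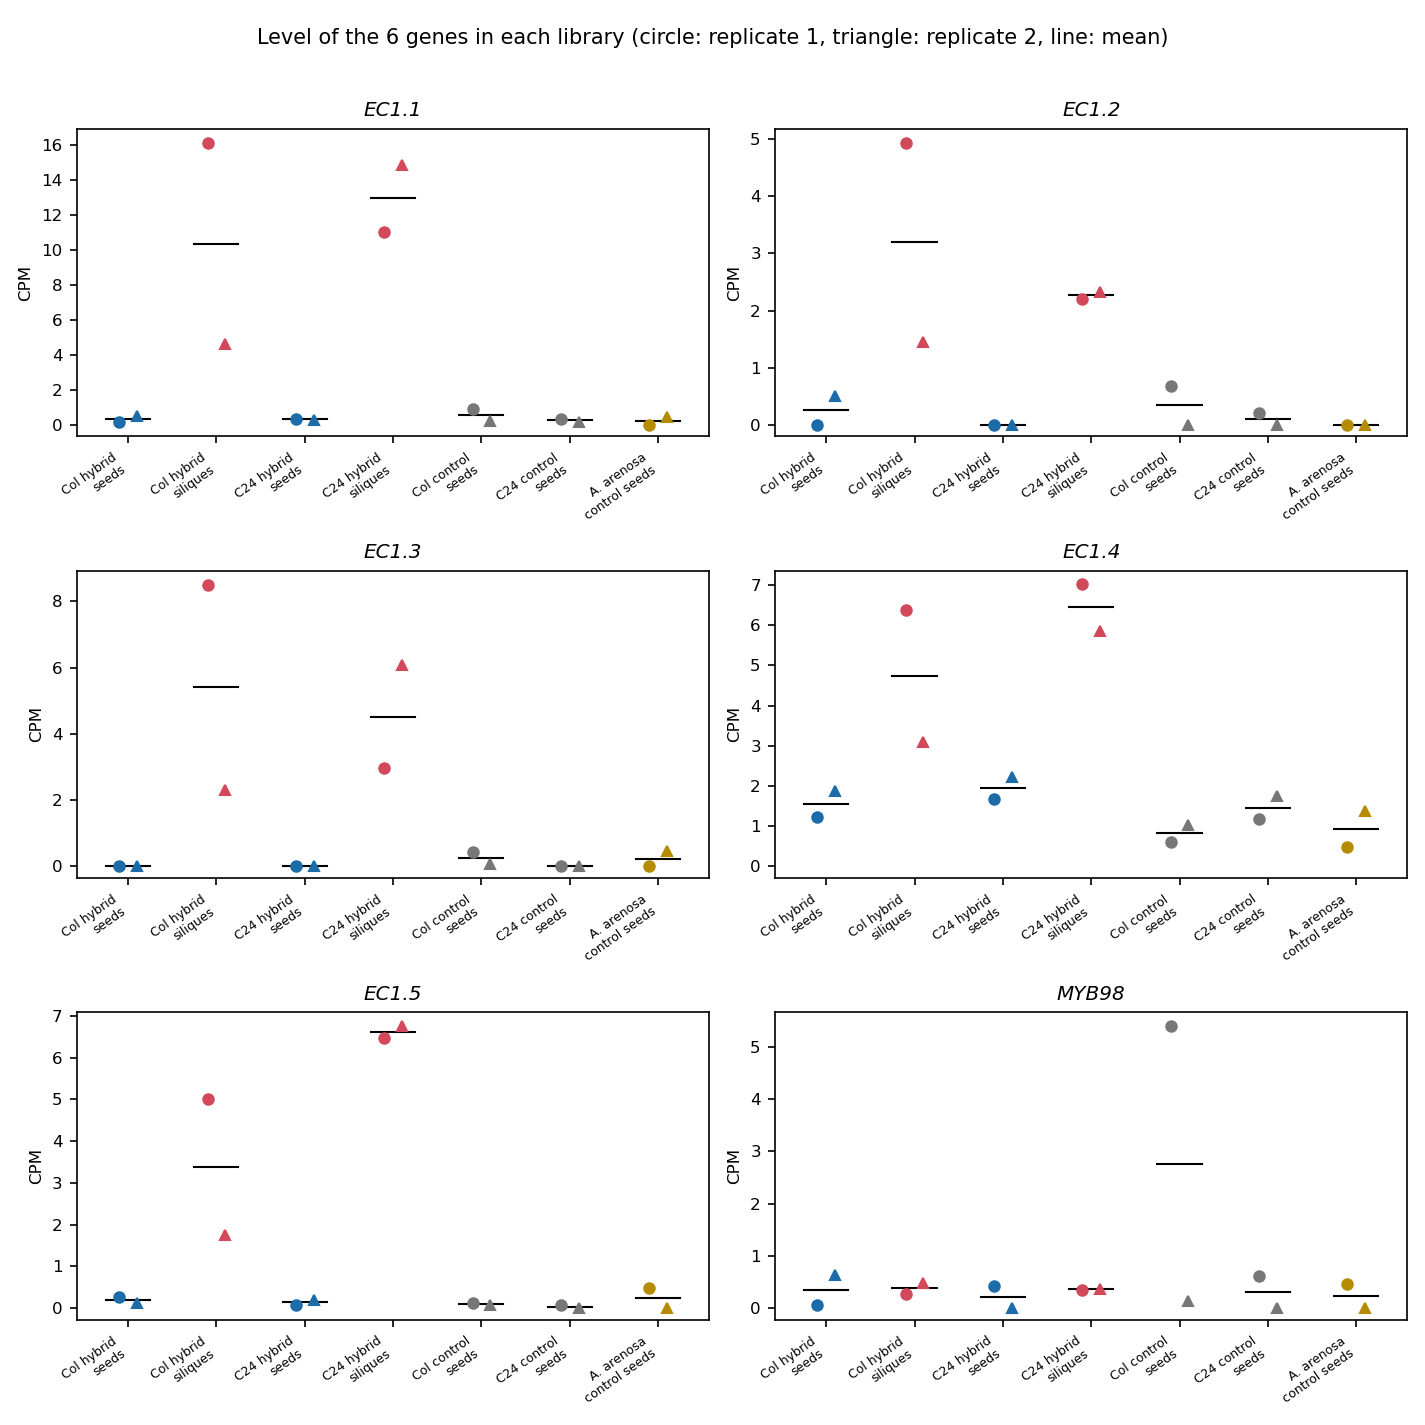
CPM (vertical axis, a linear scale of its own in each panel) of the 6 genes in the 2 libraries of each of 7 groups; circles are replicate 1, triangles replicate 2, and lines the mean of a group. The 5 EC1 genes are highest in the silique libraries of both crosses, EC1.4 is also seen in all seed groups, and MYB98 is highest in replicate 1 of the Col control seeds.

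Genes listed for the egg cell outside the family did not share a single pattern. Of the 5 listed, 3 were tested and 2, ECS1 and ECS2, were lower in seeds in both crosses. ECS2 had 2 and 1 reads in Col hybrid seeds, against 234 and 46 in Col hybrid siliques, and 1 and 2 reads in C24 hybrid seeds, against 83 and 146 in C24 hybrid siliques. For ECS1 the log2 differences were -5.19 ± 1.12 and -4.34 ± 1.24 (SE). Both genes had at most 3 reads in any hybrid seed library and passed the filter through the siliques, so a difference was a condition of being tested here too. DAN1, a listed gene whose name comes from its activation by the male germline regulator DUO1, had 176 and 98 reads in Col hybrid seeds, against 129 and 84 in Col hybrid siliques, and 87 and 94 reads in C24 hybrid seeds, against 114 and 75 in C24 hybrid siliques. It did not pass the test in either cross (0.73 ± 0.32, adjusted p = 0.0789, and 0.27 ± 0.32, adjusted p = 0.493). RKD1 and RKD2, regulators of egg cell identity, had at most 5 reads in any hybrid library and were not tested.

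Genes of other cells that siliques can hold moved as well. The 8 pollen tube genes summed to 15.3 to 26.1 CPM in hybrid seeds and 37.4 to 122 CPM in siliques, and of 6 tested, 5 were lower in seeds in the Col cross and 3 in the C24 cross, with RALF19 at -2.76 and -2.93, the pectin methylesterase VGD1 at -2.42 and -2.06 and RALF4 at -1.99 and -1.66. Of the central cell list, 4 of 5 were tested. DD22 was lower in seeds (-3.37 ± 0.79 and -4.70 ± 0.81) and AGL80, a MADS-box regulator, was higher (2.41 ± 0.33 and 2.47 ± 0.33) in both crosses, and DD7 was lower in the Col cross. Endosperm genes were higher in seeds, 3 of 4 in the Col cross and 4 of 4 in the C24 cross, with PHE1 at 4.30 and 5.70, AGL62 at 3.42 and 4.56 and MINI3 at 2.96 and 3.71. Seed coat genes were higher for 4 of 5 in both crosses, with TT12 at 2.19 and 2.04, BAN at 1.03 and 0.98 and TT16 at 0.83 and 0.66. Of the sperm cell list 1 of 7 was tested, HAP2, which was higher in the Col cross, and GEX2 had 0 reads in all 14 libraries. Of the zygote list 2 of 5 were tested and WOX9 was lower in the Col cross. Neither of the 2 antipodal genes was tested. DD22, DD7, RALF4, RALF19 and a further pollen tube gene, ANX2, had at most 18 summed reads in the hybrid seeds of a cross. They passed the filter on low counts through the siliques, so a difference was a condition of being tested. HAP2 and the endosperm gene ZOU passed it through the seeds, with the same limit. What part the other cell types have in the seed and silique differences of the EC1 genes was not tested.

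The makeup of the family's reads differed between the tissues. EC1.4 gave 34 of 49 EC1 reads in Col hybrid seeds (69.4%, exact 95% binomial interval 54.6% to 81.7%), against 144 of 815 in Col hybrid siliques (17.7%, 15.1% to 20.5%). In the C24 cross it gave 43 of 53 reads in seeds (81.1%, 68.0% to 90.6%), against 180 of 909 in siliques (19.8%, 17.3% to 22.5%). These intervals pool the reads of a group's libraries and cover counting error only. EC1.1 led in siliques, with 38.2% of EC1 reads in the Col cross and 39.4% in the C24 cross.

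By library, the EC1.4 share was 76% and 62.5% in Col hybrid seeds and 80% and 82.1% in C24 hybrid seeds. It was 15.6% and 23.4% in Col hybrid siliques and 23.7% and 16.3% in C24 hybrid siliques. Every hybrid seed library was above every silique library. With 2 libraries against 2, an exact two-sided permutation test within a cross cannot go below 0.333, and none was run.

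**Figure D2:**
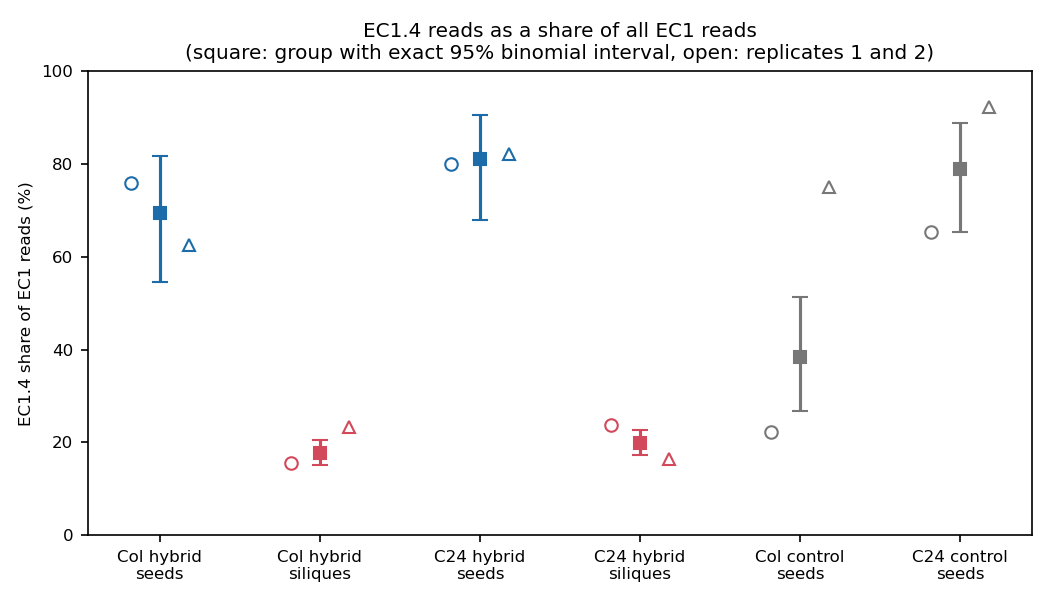
EC1.4 reads as a percent of all EC1 reads (vertical axis) in 6 groups; squares are the pooled reads of a group with their exact 95% binomial interval, and open circles and triangles are replicates 1 and 2. Hybrid seeds lie at 62.5% to 82.1% by library and hybrid siliques at 15.6% to 23.7%, while the Col control seeds hold replicates at 22.2% and 75%. Both of these lie outside that group's interval of 26.7% to 51.4%, as the intervals cover counting error only.

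Per length of exon, which allows genes to be compared, the order of the family also differed between tissues. EC1.4 was the highest in hybrid seeds, at 4.06 ± 1.18 CPM per kb in the Col cross and 5.05 ± 1.01 in the C24 cross, with the other 4 at or below 0.623. In Col hybrid siliques the means were 15.2 ± 11.9 CPM per kb for EC1.1, 13.2 ± 10.8 for EC1.3, 12.3 ± 6.06 for EC1.4, 7.95 ± 6.13 for EC1.2 and 6.39 ± 4.35 for EC1.5, and neighbours in this order lay within the spread of the replicates. In C24 hybrid siliques the means were 19.0 ± 3.96 for EC1.1, 16.8 ± 2.17 for EC1.4, 12.5 ± 0.362 for EC1.5, 11.1 ± 5.39 for EC1.3 and 5.64 ± 0.210 for EC1.2. Among neighbours in this order, only EC1.4 and EC1.5 were further apart than the sum of their SDs.

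Siliques of the mothers were then compared. Of the 5 genes tested, 0 were called between Col and C24 hybrid siliques (edgeR), 0 at an unadjusted p under 0.05 and 0 by DESeq2, where 4.31% of all genes were called. EC1.5 had the largest difference, with a mean of 3.38 ± 2.30 CPM in Col hybrid siliques and 6.62 ± 0.191 CPM in C24 hybrid siliques (log2 difference Col minus C24 -0.97 ± 0.50 SE, adjusted p = 0.42). EC1.1, EC1.2, EC1.3 and EC1.4 had differences of -0.32, 0.49, 0.26 and -0.44 with SEs of 0.52, 0.78, 0.66 and 0.41.

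The seed minus silique difference was also compared between the crosses. No member was called for this interaction by edgeR or DESeq2, and 0.29% of all genes were. The estimate was 0.06 ± 1.53 (SE) for EC1.1, 0.06 ± 0.65 for EC1.4 and 1.55 ± 1.21 for EC1.5 on the log2 scale. For EC1.1 the SE was far above the estimate, so likeness of the crosses is not shown.

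The silique replicates of the Col cross differed from each other in EC1 level. Replicate 1 had 16.1 CPM of EC1.1, against 4.60 CPM in replicate 2, and the ratio of replicate 1 to replicate 2 was 3.50 for EC1.1, 3.40 for EC1.2, 3.70 for EC1.3, 2.85 for EC1.5 and 2.07 for EC1.4. Over 18342 genes with at least 10 reads in each silique library the median ratio was 0.981, and 95% of them lay between 0.451 and 2.18. In the C24 siliques the 5 ratios ran from 0.488 to 1.2.

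Other genes split in the same libraries. ECS1 and ECS2, proteases secreted by the egg cell that cleave LURE1 peptides, had ratios of 6.34 and 5.76 in the Col siliques and 0.291 and 0.522 in the C24 siliques. The central cell genes ranged widely in the Col siliques, with AGL80 at 0.984, DD65 at 1.99, DD7 at 2.09 and DD22 at 3.76, and lay between 0.543 and 0.889 in the C24 siliques. The 6 pollen tube genes with enough reads ran from 0.890 for ANX1 to 4.27 for RALF19 in the Col siliques and from 0.546 to 0.867 in the C24 siliques. PHE1, an endosperm MADS-box gene, went the other way, with 0.415 in the Col siliques and 2.82 in the C24 siliques. Of the synergid genes, LURE1.2 to LURE1.5, which are close copies, lay between 0.828 and 1.17 in the Col siliques and between 0.876 and 1.12 in the C24 siliques. FER had 1.06 and 1.02, DD31 had 1.76 and 1.1, and NTA had 1.38 and 1.64. The part of the other cell types in the EC1 differences between these libraries was not tested.

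**Figure D3:**
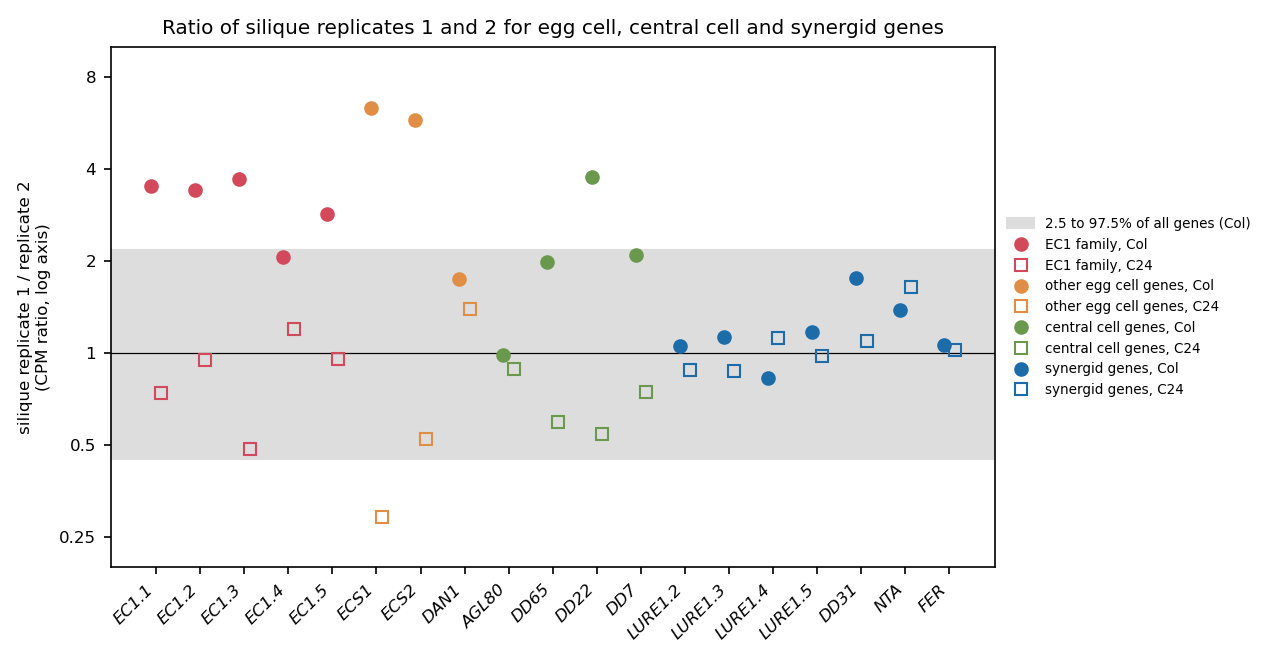
Ratio of CPM in silique replicate 1 to replicate 2 (vertical log axis) for genes listed for the egg cell, central cell and synergids; filled circles are the Col cross, open squares the C24 cross, and the grey band holds 95% of all genes in the Col cross. EC1.1, EC1.2, EC1.3, EC1.5, ECS1, ECS2 and DD22 lie above the band in the Col siliques, while LURE1.2 to LURE1.5 lie near 1 in both crosses and DD31 and NTA lie inside the band at 1.76 and 1.38 in the Col siliques.

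MYB98 was scarce in both tissues, in contrast to LURE1.2 to LURE1.5 and DD31 in siliques. It had 1 and 5 reads in Col hybrid seeds, against 4 and 8 in Col hybrid siliques. The C24 cross gave 5 and 0 reads in seeds, against 5 and 5 in siliques. The tissues overlapped in the Col cross and met at the same count in the C24 cross.

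The mean level of MYB98 was 0.345 ± 0.396 CPM in Col hybrid seeds and 0.379 ± 0.148 in Col hybrid siliques, and 0.208 ± 0.294 in C24 hybrid seeds and 0.360 ± 0.0215 in C24 hybrid siliques (SD, n = 2 each). These counts were too low to pass the filter, so MYB98 was not tested in the fits reported here. The silique to seed ratio of scaled reads was 1.5 in the Col cross (exact 95% interval 0.521 to 4.87) and 1.61 in the C24 cross (0.502 to 6.01). Both intervals, which cover counting error only, hold 1. IRX1, which overlaps MYB98 on the opposite strand, had 6 to 18 reads in hybrid seeds and 73 to 644 in siliques.

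The LURE1 genes, the attractant peptides of the synergid, were among the clearest silique transcripts. LURE1.3 had 0 reads in all 4 hybrid seed libraries. It had 172 and 173 reads in Col hybrid siliques and 143 and 150 in C24 hybrid siliques. With the floor of 3 reads per library it was at least 39.0-fold lower in Col hybrid seeds and at least 39.2-fold lower in C24 hybrid seeds.

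LURE1.5 had 0 and 0 reads in Col hybrid seeds, against 196 and 190 in Col hybrid siliques, and 1 and 1 reads in C24 hybrid seeds, against 145 and 136 in C24 hybrid siliques. DD31, a further gene that depends on MYB98, had 0 and 1 reads in Col hybrid seeds, against 337 and 217 in Col hybrid siliques, and 1 and 0 reads in C24 hybrid seeds, against 323 and 270 in C24 hybrid siliques. The silique to seed ratio of DD31 was 416 in the Col cross (exact 95% interval 74.3 to 16446) and 478 in the C24 cross (85.4 to 18893). LURE1.2 and LURE1.4 had 0 to 2 reads in any hybrid seed library and 96 to 176 in any silique library. LURE1.1 was low throughout, with 0 to 2 reads in hybrid seeds and 5 to 26 in siliques, and did not pass the filter.

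Of the 9 synergid genes listed beside MYB98, 7 were tested, of which 6 were lower and 1 was higher in seeds in each cross. Apart from FER these genes had at most 8 reads in any hybrid seed library and passed the filter on low counts through the siliques, so, as for the EC1 genes, a difference was a condition of being tested. The one that was higher was FER, a receptor kinase that is also active outside the synergids (log2 difference 1.4 ± 0.23 SE in the Col cross and 1.66 ± 0.23 in the C24 cross). NTA, a membrane protein needed for pollen tube reception, was lower in seeds by -2.38 ± 0.82 and -2.34 ± 0.87 (adjusted p = 0.0346 and 0.0414). LRE, an anchored co-receptor of FER, had at most 1 read in hybrid seeds and 1 to 8 in siliques. The LURE1 copies share sequence, with 52% to 96.5% of the 31-base words of LURE1.2 to LURE1.5 found elsewhere in the genome, so how reads were split among them is uncertain and they do not count as separate observations. For DD31, 15.7% of the words were found elsewhere, so its values carry some of this limit too.

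Per length of exon, MYB98 stood at 0.147 to 0.259 CPM per kb in the 4 silique libraries. LURE1.2 to LURE1.5 stood at 18.0 to 40.2 and DD31 at 21.7 to 38.3 in the same libraries. MYB98 was thus far below these 5 genes in each of these libraries. Other listed genes were lower, with mean levels in Col and C24 siliques of 1.36 and 4.36 for LURE1.1, 0.929 and 0.778 for NTA and 0.534 and 0.544 for LRE. FER, the most abundant gene of the list, stood at 43.3 to 50.3.

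**Figure D4:**
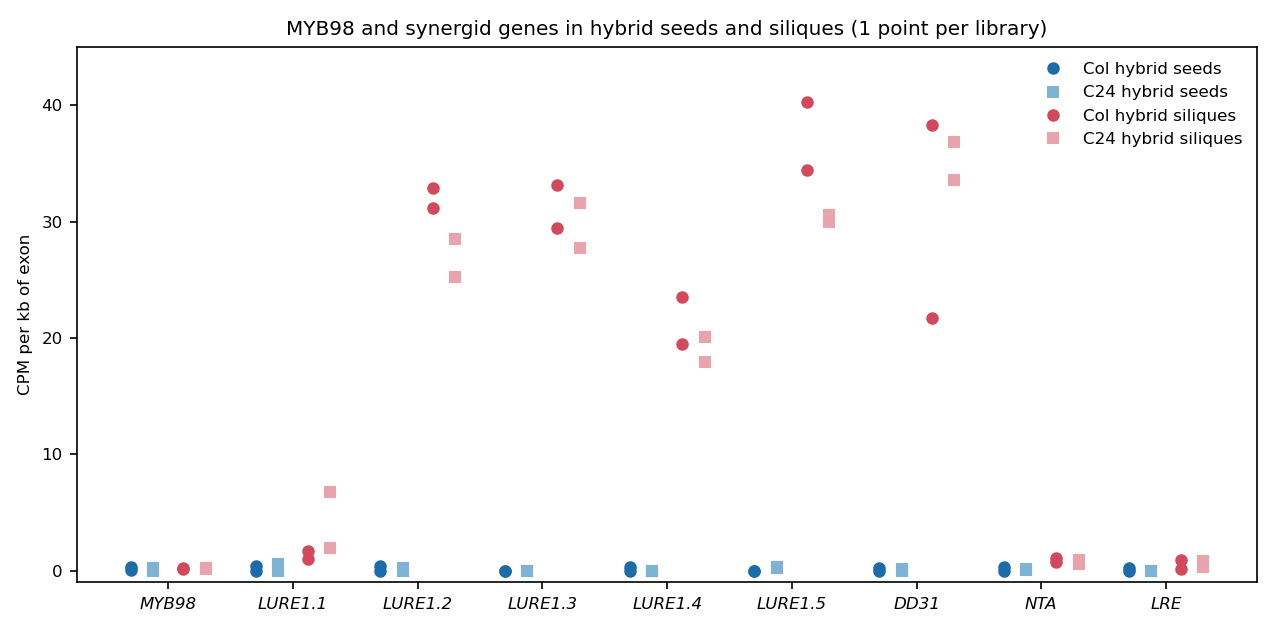
CPM per kb of exon (vertical axis) of MYB98 and 8 genes listed for the synergids, with 1 point per library; blue marks hybrid seeds and red marks hybrid siliques, circles the Col cross and squares the C24 cross. LURE1.2 to LURE1.5 and DD31 lie between 18.0 and 40.2 in siliques and near 0 in seeds, while MYB98 lies below 0.4 in both.

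A short DNA motif reported for MYB98, GTAACNT on either strand, was searched in the 250 bases before the annotated start of each gene. It was found for all 5 LURE1 genes and DD31, for 8 of the 9 synergid genes, and in 11.4% of 27476 promoters of that length. Of the 5 EC1 genes only EC1.3 held it, at 1 place, and MYB98 itself did not. The windows around the motif are shown for LURE1.2 to LURE1.5, DD31 and EC1.3, with the motif in capitals (RefSeq, TAIR10.1, strand of the gene, 5′ to 3′; AGGTTAC and the like are the motif read on the other strand).
LURE1.2: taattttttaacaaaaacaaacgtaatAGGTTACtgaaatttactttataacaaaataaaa
LURE1.3: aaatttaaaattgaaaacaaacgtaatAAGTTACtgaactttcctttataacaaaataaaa
LURE1.4: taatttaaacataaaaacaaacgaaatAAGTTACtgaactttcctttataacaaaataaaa
LURE1.5: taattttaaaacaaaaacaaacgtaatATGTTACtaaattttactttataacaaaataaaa
DD31, far match: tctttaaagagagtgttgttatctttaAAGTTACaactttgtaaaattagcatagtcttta
DD31, near match: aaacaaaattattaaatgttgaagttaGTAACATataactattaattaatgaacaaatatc
EC1.3: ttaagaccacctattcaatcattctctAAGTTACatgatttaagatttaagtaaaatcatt

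The motif lay 120 to 127 bases before the annotated start in LURE1.2 to LURE1.5, 179 and 103 bases before it in DD31 and 155 bases before it in EC1.3. The upstream stretches of LURE1.2 to LURE1.5 were 83.5% to 96.4% identical to each other. That of LURE1.1 was 86.3% to 88.5% identical to them over the 168 to 175 bases aligned. The matches of the LURE1 genes are thus not independent. A match is a description of these letters and not of binding.

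In seeds, hybrids were set against controls. Among the 6 genes only EC1.4 had enough reads to be tested. It had 19 and 15 reads in Col hybrid seeds, against 10 and 15 in Col control seeds, and 20 and 23 reads in C24 hybrid seeds, against 17 and 24 in C24 control seeds. The hybrid and control counts met at 15 reads in the Col cross and overlapped in the C24 cross. Scaled to depth, both Col hybrid libraries were above both Col control libraries, and the C24 levels overlapped.

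Mean EC1.4 levels were 1.56 ± 0.452 CPM in Col hybrid seeds and 0.823 ± 0.297 in Col control seeds, and 1.94 ± 0.388 CPM in C24 hybrid seeds and 1.46 ± 0.411 in C24 control seeds (SD, n = 2 each). The log2 difference, hybrid minus control, was 0.94 ± 0.65 (SE) in the Col cross and 0.46 ± 0.63 in the C24 cross (edgeR's quasi-likelihood test, adjusted p = 0.342 and 0.623). The Col difference less the C24 difference was 0.48 ± 0.90 (adjusted p = 0.827). Between mothers, Col minus C24, it was -0.35 ± 0.64 in hybrid seeds and -0.83 ± 0.64 in control seeds (adjusted p = 0.799 and 0.415). Without replicate 1 of the Col control seeds, the hybrid minus control difference in Col was 0.56 ± 0.63, the interaction 0.14 ± 0.79 and the difference between the control mothers -0.50 ± 0.62, none of them called.

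None of these 5 comparisons called EC1.4, by edgeR, by an unadjusted p under 0.05 or by DESeq2. The share of the 20552 genes tested that was called was 16.8% for the Col hybrid against its control, 31.8% for the C24 hybrid against its control, 1.39% for the interaction, 9.78% between the hybrids and 16.8% between the controls. These tests rest on 10 to 24 reads per library and 2 libraries per group, and likeness of the groups is not shown by them.

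The other EC1 genes were at the edge of detection in control seeds too, with 1 library above the rest. EC1.1 had 15 and 3 reads in Col control seeds and 5 and 2 in C24 control seeds. EC1.2 had 11 and 0 reads in Col control seeds and 3 and 0 in C24 control seeds, and EC1.3 had 7 and 1 and then 0 and 0. EC1.5 had 2 and 1 reads in Col control seeds and 1 and 0 in C24 control seeds. For EC1.1, EC1.2 and EC1.3 the highest control library was replicate 1 of the Col control seeds, and without it Col control seeds held 3, 0 and 1 reads. EC1.4 gave 38.5% of the 65 EC1 reads in Col control seeds, 75% without that library, and 78.8% of the 52 in C24 control seeds.

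That library also held most of the MYB98 reads of the seeds. MYB98 had 88 and 2 reads in Col control seeds and 9 and 0 in C24 control seeds, so the Col control mean of 2.77 ± 3.72 CPM rests on 1 library and is 0.138 CPM without it. The synergid genes other than FER did not follow to the same degree: they summed to 3.74 CPM in that library, against 1.38 CPM in replicate 2 of the Col control seeds and 57.4 to 69.9 CPM in the siliques. DD31 had 13 reads there and LURE1.5 had 14. Genes of other cell types also had more reads there, among them DMP9 and GEX3 of sperm cells with 64 and 43 reads, PRK6 of pollen tubes with 51, and the egg cell regulator RKD1 with 18. Those 4 had at most 6, 3, 9 and 2 reads in the other libraries with an A. thaliana mother, apart from 16 reads or fewer in A. arenosa. The part of this library's wider spread of detected genes in its MYB98 reads was not tested.

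In A. arenosa control seeds, counted on the A. thaliana genome, the 6 genes had 0 to 3 reads each. EC1.4 had 1 and 3 reads, EC1.1 had 0 and 1, EC1.2 had 0 and 0, EC1.3 had 0 and 1, EC1.5 had 1 and 0 and MYB98 had 1 and 0. None was above the 3-read floor, so nothing about their level in that species can be read from these libraries.

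Genes with the pattern most like the summed EC1 level were named over all 14 libraries among 22630 genes, by Pearson's r of log2(CPM + 1). The top 5 were AT4G13261 (0.983), AT2G25482 (0.982), AT3G44115 (0.981), AT2G39851 (0.981) and AT5G22970 (0.98). Their mean level in siliques was 3.79, 12.1, 4.65, 24.4 and 9.63 CPM, and their mean in hybrid seeds was at most 0.0969 CPM. The points share their tissue, so r mostly sets 4 silique libraries against 10 seed libraries, and 97 genes had r above 0.95.

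The 5 genes most like MYB98 were FRO2 (0.959), NAC020 (0.948), AT5G29015 (0.945), AT1G69990 (0.945) and AT3G33133 (0.944). Each had its highest level in replicate 1 of the Col control seeds, at 3.99 to 15.2 CPM, against at most 1.17 CPM in any other library. This likeness therefore rests on that library, and none of the LURE1 genes was among the 5.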

How the data were processed

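Messenger RNA of whole seeds or siliques was sequenced. Reads were mapped with BWA to TAIR10, per the submitters' processing notes; how reads on several loci or on both strands were treated is not given in the sources used here. The authors deposited raw counts per gene and per transposable element, with 0 columns left unmapped to a group. The 2 records of each A. thaliana control library were deposited as 1 summed column and counted once.

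Counts were fitted with edgeR 4.0.16 (R 4.3.3, limma 3.58.1; TMM, filterByExpr, glmQLFit and glmQLFTest, Benjamini-Hochberg over all genes tested, threshold 0.05), once over the 4 hybrid seed and silique groups and once over the 4 seed groups with A. thaliana mothers. A. arenosa controls entered no test. CPM used TMM factors over 14 libraries. Fold bounds against 0 used 3 reads per library; ratios carry exact 95% binomial intervals, which cover counting error only. Both fits were run on simulated counts that gave every gene the same spread, so that check does not cover genes with few reads in seeds. Alternatives were DESeq2 1.42.0, other normalisation, no filter, other sets of groups, a replicate block and leaving out each library. The design had not expected summed control columns, and MYB98 was too low to be tested by it.

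Members and lists were chosen with earlier results of these data known. Named beside the members are up to 3 genes per list with the largest mean difference among those called in both crosses in 1 direction, and the 5 genes most like each pattern; other genes named were chosen after their values were seen. Sequences are from RefSeq TAIR10.1, aligned with mafft 7.526; the count table and this assembly were joined by locus name.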

Additional observations from a re-analysis of the deposited data

Results flagged for a closer look

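MINI3, a WRKY factor of the endosperm that promotes seed growth, differed between the crosses in its hybrid response. It had 11.1 and 9.89 CPM in Col hybrid seeds, against 13.7 and 17.1 CPM in Col control seeds, and 29.5 and 21.4 CPM in C24 hybrid seeds, against 4.34 and 5.62 CPM in C24 control seeds. The C24 hybrid was above its control in both libraries, and the Col hybrid was below its control in both. The log2 difference, hybrid minus control, was -0.52 ± 0.21 (SE) in the Col cross, which did not pass the test (adjusted p = 0.127), and 2.42 ± 0.22 in the C24 cross (adjusted p = 0.000307). The Col effect minus the C24 effect was -2.93 ± 0.30 (edgeR's quasi-likelihood test, adjusted p = 0.00438), where 1.39% of all genes were called. Of the 5 EC1 genes and MYB98, only EC1.4 had enough reads to be tested for this, and it was not called.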

How the results depend on the processing

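Of the 6 genes, 5 were called lower in seeds in the Col cross; leaving out 1 library gave 3 to 5, the 3 without replicate 1 of the Col hybrid seeds or siliques, and a fit of all 7 groups gave 4. In the C24 cross the count was 5, and 4 to 5 with 1 library left out. EC1.1, EC1.3 and EC1.5 kept both calls in every alternative run. Every other comparison gave 0 members under every alternative run. EC1.2 and EC1.3 summed, an alternative chosen after seeing the data, gave -5.52 ± 1.06 (SE) in the Col cross and -9.48 ± 1.67 in the C24 cross. The C24 value is fitted against 0 reads in seeds and is no bound. Without the filter MYB98 was tested by edgeR and not called (seeds minus siliques -0.41 ± 1.19 in Col and -0.72 ± 1.24 in C24, hybrid minus control -2.93 ± 1.27 in Col and -0.46 ± 1.28 in C24; adjusted p = 0.855, 0.681, 0.120 and 0.958). With the filter and 1 library left out, MYB98 passed in some fits, and hybrid minus control ran from -5.08 to -2.04 in Col and from -5.10 to 4.55 in C24. Both C24 ends are fits against a group left with 0 reads and are no bounds. The Col value rests on replicate 1 of the Col control seeds, which held 88 of the 90 control reads, and without it MYB98 was not tested.

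Uncalled differences changed sign with 1 library left out; the cause was not tested. Col minus C24 siliques ran from -1.50 to 0.32 for EC1.1, -0.65 to 1.13 for EC1.2 and -0.98 to 0.92 for EC1.3, and the tissue by mother interaction from -0.89 to 1.25 for EC1.1, -0.49 to 5.15 for EC1.2, -0.92 to 0.98 for EC1.3 and -0.35 to 0.69 for EC1.4. The interactions of EC1.2 and EC1.3 include C24 hybrid seeds with 0 reads and are no bounds.

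The labels do not pair the replicate numbers, and deviations of same-numbered libraries correlated at -0.399 to 0.690 between groups. A fit with a replicate block left 5 members called in each cross and 0 elsewhere; over all genes it moved the interaction of tissue and mother to 4 calls from 60, and other counts by less than 1.5 times.

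Over all genes, calls moved by more than 1.5 times as follows. Col hybrid minus control seeds had 3454 calls, 1056 over 7 groups, 1357 without replicate 1 of the controls and 1275 to 1748 with 1 library left out, and 2236 with the compared groups alone. C24 hybrid minus control seeds had 6536, and 3931, 4118 and 2736 to 3543 in the first 3 of these. Between control seeds 3444 became 1802, 1142 and 1578 to 2082, and between hybrid seeds 2009 became 1140 over 7 groups and 1042 to 1325. Between siliques 892 became 560 with those groups alone, 2019 without the filter and 562 with 1 library left out. The hybrid by mother interaction had 285, then 33 over 7 groups, 153 without control replicate 1, 614 by DESeq2, 1052 without the filter and 445 to 542 with 1 library left out. The tissue by mother interaction had 60, then 37 over 7 groups, 288 by DESeq2, 925 without the filter and 1 to 140 with 1 library left out. With upper-quartile scaling, Col hybrid minus control calls split into 1338 higher and 1992 lower, against 2143 and 1311 with TMM, with all genes shifted by -0.158 at the median, and Col minus C24 controls into 1948 and 1319, against 1613 and 1831 (shift 0.108).

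Depth limits EC1.1, EC1.2, EC1.3, EC1.5 and MYB98 in seeds, with 0 to 5 reads in any hybrid seed library.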

Other observations

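In A. arenosa control seeds the summed level of the pollen tube genes was far above that of any other group, but not that of every gene. PRK6 averaged 1.85 ± 2.61 CPM, against 1.56 CPM in Col control seeds. ANX1 averaged 10.2 ± 9.76 CPM, against 6.16 CPM in Col hybrid seeds. The pollen tube genes summed to 916 and 7270 CPM in the 2 libraries, against at most 122 CPM elsewhere, and VGD1 alone had 12640 reads in replicate 2. The EC1 genes had 7 reads in total in those libraries. The endosperm genes summed to 0 and 0.462 CPM in them. FUL averaged 121 ± 85.5 CPM (SD, n = 2), while the fruit genes IND and ALC averaged 3.02 and 27.7 CPM. What tissue the pollen tube reads came from was not tested.

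The early embryo genes, read in the seeds of the C24 cross, summed to 9.48 and 5.00 CPM in C24 hybrid seeds, against 38.9 and 16.4 CPM in C24 control seeds, without overlap. LEC1, an embryo regulator, carried this, with 30 and 17 reads in C24 hybrid seeds, against 492 and 182 in C24 control seeds (log2 difference -3.46 ± 0.48 SE, edgeR's quasi-likelihood test, adjusted p = 0.0014). WOX9, a homeobox gene of the same list, went the other way, with 63 and 26 reads in C24 hybrid seeds, against 8 and 7 in C24 control seeds (2.90 ± 0.72, adjusted p = 0.0165), and no other gene of the list was called. EC1 reads numbered 53 in C24 hybrid seeds and 52 in C24 control seeds, with EC1.4 giving 81.1% of them in C24 hybrid seeds and 78.8% in C24 control seeds.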
